A study of Homo sapiens with 30 samples.

Results

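Clone 12 is one of 4 single clones of the human alveolar rhabdomyosarcoma line Rh30 that carry an FKBP tag on PAX3-FOXO1, and it was compared with untagged parental Rh30 across all genes. The comparison uses 4 of the 30 samples of the series, namely the 2 clone 12 libraries and the 2 parental libraries. Both groups are listed by the labels as DMSO-treated, with no dTAG, so the tag was present in clone 12 but its degrader was not added. Clones 4, 10 and 11, also DMSO-treated and also 2 libraries each, carry the same PAX3-FOXO1-FKBP label and are used to tell what is found in clone 12 from what the tagged clones have in common. Each tagged group is 1 clone, so a difference from the parental line can belong to the tag, to the cell the clone grew from or to its culture, and these cannot be told apart here. Libraries held 18294367 and 21912607 reads in clone 12, against 23773431 and 26834005 in parental Rh30. Of 23261 genes in the table, 14175 had enough reads to be tested. The labels do not say whether libraries of a group came from different cultures, and the spread behind each p-value is the one between these libraries, which may be technical. The parental libraries differed from each other little more than counting error predicts, with a mean chi-square of 1.84 per gene where counting alone gives 1, against 14.0 between the clone 12 libraries.

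PAX3-FOXO1 joins the DNA-binding part of the developmental regulator PAX3 to the activation domain of FOXO1. In alveolar rhabdomyosarcoma the fusion protein binds enhancers, keeps a set of growth, signalling and lineage genes high, and holds cells in an immature state in which myogenic factors are made but the contractile program stays incomplete. An FKBP tag is a protein module that a dTAG molecule can bring to the cell's degradation machinery, and a clone that carries it can be used to ask what the fusion does, provided that the tagged cells resemble the line they came from. The comparison of clone 12 with parental Rh30 bears on that last point.

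The line's muscle lineage markers were abundant in both groups. MYOD1, the master regulator of the muscle lineage, had 44966 and 41194 normalised counts in clone 12, against 25944 and 25631 in parental Rh30. Normalised counts here are reads scaled to the mean effective library size, and levels of different genes are not comparable by them because gene length is not taken out. MYOG, DES, CDH15, CHRND, CHRNA1 and FGFR4 were also well expressed in all 4 libraries, so muscle lineage markers were present in both groups. The other markers chosen for the line, TFAP2B, CDH3 and MYCN, are described with the fusion's targets below. Of these, TFAP2B and CDH3 were lower in clone 12 than in parental Rh30.

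Clone 12 differed from parental Rh30 across a large share of the transcriptome. In edgeR's quasi-likelihood test with Benjamini-Hochberg adjustment, 7454 of 14175 genes were called at an adjusted p under 0.05, which is 52.6% of those tested. Of these, 3946 were higher in clone 12 (27.8% of genes tested) and 3508 were lower (24.7%). A change of at least 2-fold was reached by 1421 genes that rose (10% of genes tested) and 1817 genes that fell (12.8%). The count of higher genes fell below 3946 by over 1.5 times whichever library was left out: it was 2483 and 2627 without clone 12 library 1 or 2, and 2411 and 2410 without parental library 1 or 2, while 2348 to 2841 genes were lower. Scaling by library totals alone turned the split to 2646 higher and 4576 lower, because it moved the median log2 change of all genes to -0.19, against 0.03 with TMM scaling.

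GC content moved with these changes and has to be read beside every gene group below. The median log2 change was -0.69 in the GC-poorest 20% of genes and 0.56 in the GC-richest 20%, and across 13534 genes the rank correlation of the change with GC content was 0.52, and with transcript length -0.30, both given as descriptions. Clones 4, 10 and 11 showed nearly the same trend against the parental line, from medians of -0.78, -0.86 and -0.89 in the GC-poorest of 20 slices of genes to 0.47, 0.58 and 0.70 in the GC-richest. Between the parental libraries the rank correlation with GC content was 0.013, and between the clone 12 libraries it was 0.19. Whether the trend arose in the cells or in library preparation was not tested. A correction for GC content and length, chosen after seeing the data, left 3447 genes higher and 2832 lower, with 4176 genes called with the same sign in both fits and 73 with the opposite sign. Corrected values are given below where they end a call or change a value by much. Comparisons of clone 12 with the other tagged clones are between groups that have the trend in common, but the correction changed their counts too. Against the mean of clones 4, 10 and 11 the genes higher went from 2260 to 2846, and those lower from 1895 to 2344.

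**Figure D1:**
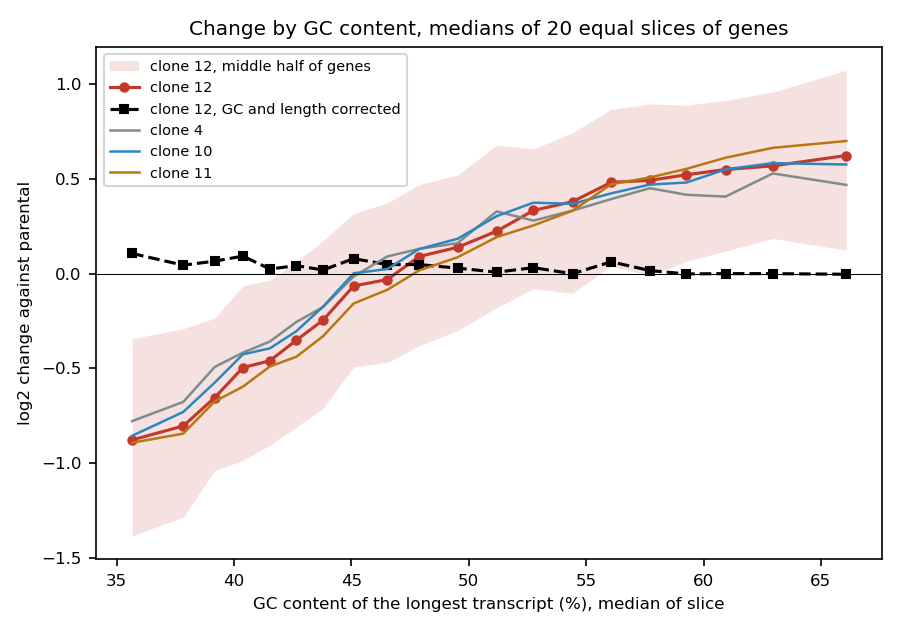
Median log2 change against parental Rh30 (vertical axis) in 20 equal slices of genes ordered by the GC content of the longest transcript in percent (horizontal axis). The shaded band runs from the lower to the upper quartile of genes in clone 12, the dashed line is clone 12 after the GC and length correction, and all 4 clones rise from GC-poor to GC-rich genes, in clone 12 from a median of -0.88 to 0.62.

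The fusion's partner genes were not raised in clone 12. FOXO1, whose reads come from the fusion and from the intact allele together, had 652 and 672 normalised counts in clone 12, against 1618 and 1649 in parental Rh30, a log2 change of -1.30 (SE 0.24, edgeR adjusted p = 0.00115). It fell also after the GC and length correction, by 1.11 on the log2 scale. PAX3 had 327 and 345 normalised counts in clone 12, against 460 and 440 in parental Rh30, and its log2 change of -0.42 (SE 0.32, edgeR adjusted p = 0.282) was not called, although the 4 libraries fitted alone did call it, at -0.48. Both PAX3 libraries of clone 12 lay below both parental libraries. That order alone is not a test, and the share of all genes with such an order was not counted. FOXO1 was also lower than parental in the other clones, with log2 changes of -0.58 in clone 4, -0.81 in clone 10 and -1.06 in clone 11, and clone 12 did not differ from their mean in the test (-0.48, SE 0.20, edgeR adjusted p = 0.0887). Gene counts do not separate fusion transcripts from the intact alleles.

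Genes that published work names as targets of the fusion were mostly lower in clone 12. Of 39 tested, 25 fell and 4 rose, against 24.7% and 27.8% of all genes tested, with a median log2 change of -0.78 against 0.03. After the GC and length correction 21 were lower and 2 higher, 18 of the lower ones being called in both fits. The list was drawn up with earlier results of these data known, so its direction is a description. The same genes had medians of -0.03, 0.01 and -0.05 in clones 4, 10 and 11, and tested directly against the mean of those clones 16 of the 39 were lower in clone 12 and 3 higher, where 13.4% and 15.9% of all genes were.

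TFAP2B, which encodes the AP-2 beta transcription factor and is used in diagnosis as a marker of fusion-positive rhabdomyosarcoma, had 200 and 209 normalised counts in clone 12, against 831 and 922 in parental Rh30. The groups did not overlap, with a log2 change of -2.10 (SE 0.15, edgeR adjusted p = 1.63e-05). It was near the parental level in all the other clones, between 638 and 918. CDH3, the cell adhesion protein P-cadherin, had 76.4 and 81.7 normalised counts in clone 12, against 274 and 225 in parental Rh30 (log2 -1.65, SE 0.20), while clones 4, 10 and 11 had log2 changes of 0.84, 0.32 and 0.47. PRDM12, a regulator of sensory neuron development, fell by 0.99 on the log2 scale and NELL1, a secreted glycoprotein gene, by 0.91. CNR1, the cannabinoid receptor, fell by 1.65, but it was lower in clone 10 too, at -1.98. FOXF1 fell most and is described with its neighbours below.

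Not every listed target was lower. MYOG, the muscle differentiation factor myogenin, rose with 15836 and 13158 normalised counts in clone 12 against 7177 and 7361 in parental Rh30 (log2 1.00, SE 0.15), but its corrected change was 0.36. MYOD1 rose by 0.74 on the log2 scale (SE 0.14), and the correction ended that call, with a corrected change of 0.02. FGFR4, a growth factor receptor that the fusion is known to raise, had 21907 and 28189 normalised counts in clone 12, against 20377 and 20448 in parental Rh30, and was not called (log2 0.30, SE 0.19). MYCN, the growth regulator often amplified in these tumours, was not called either, at -0.29 (SE 0.13), though its corrected change of -0.80 was. Among 13 myogenic transcription factors tested, 5 rose and 5 fell (38.5% each), against 27.8% and 24.7% of all genes tested. After correction 2 rose and 5 fell. Counts were 2 and 5 without clone 12 library 1, 4 and 3 without library 2, and 3 and 3 without either parental library.

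**Figure D2:**
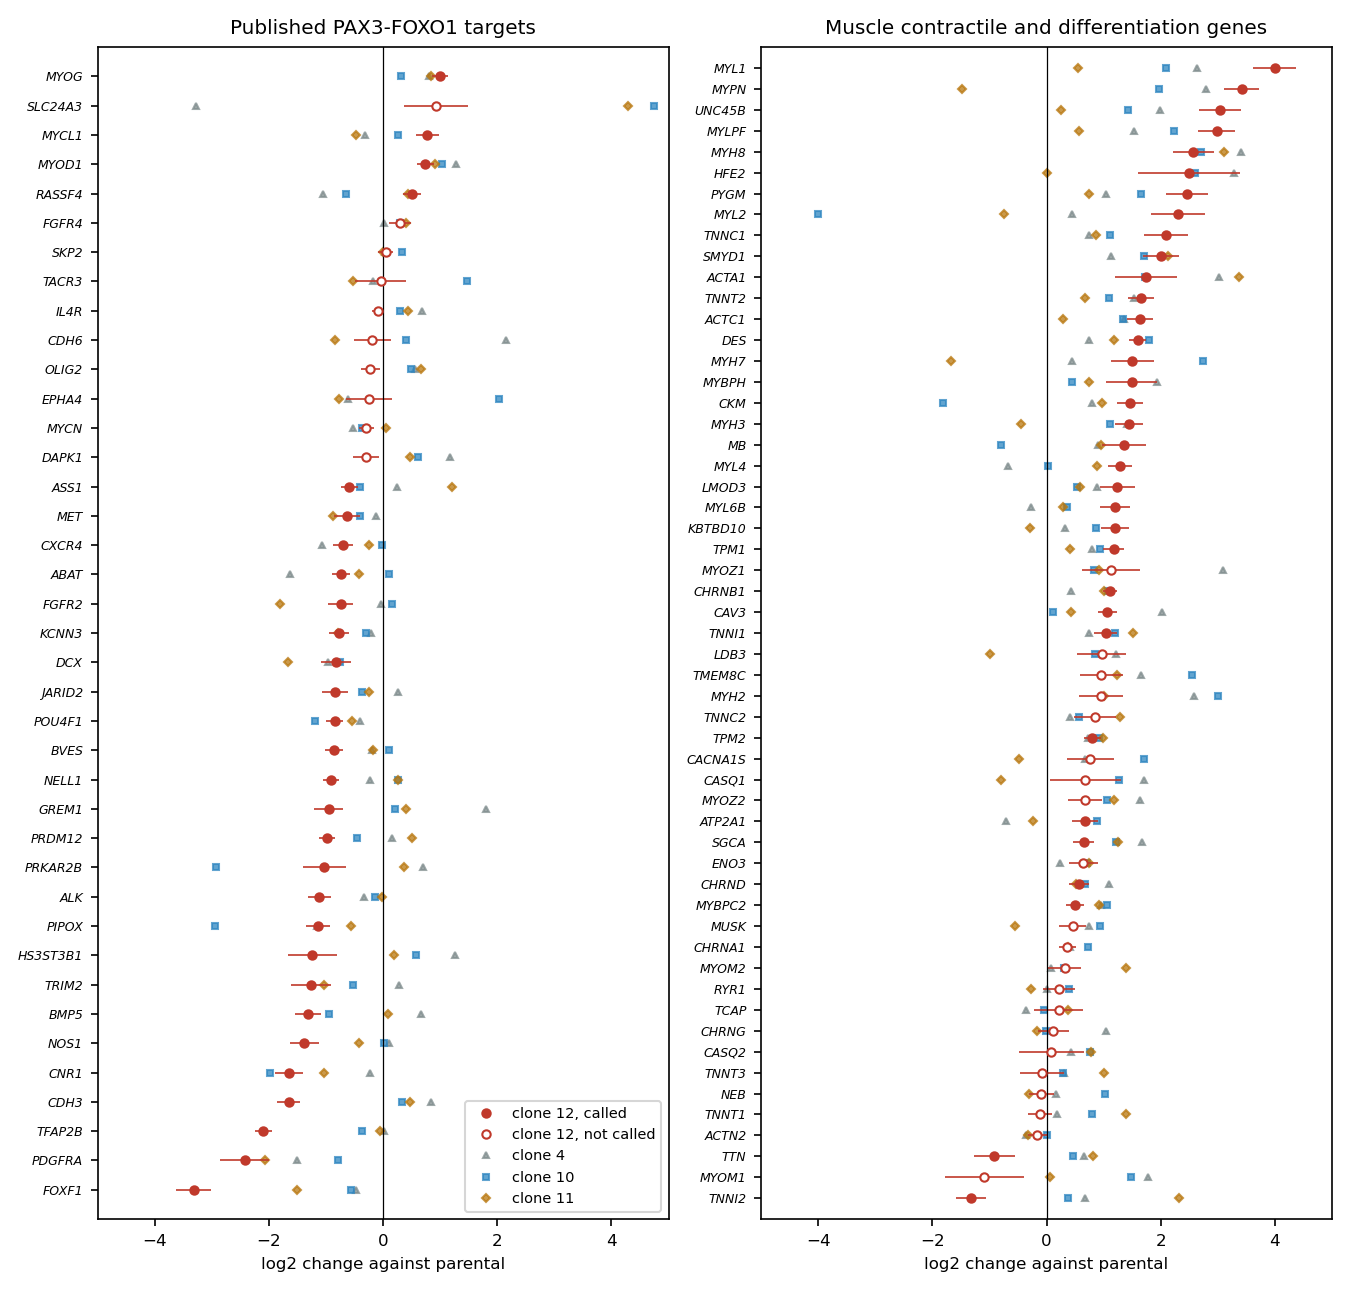
Log2 change against parental Rh30 (horizontal axis) of each tested member of 2 gene lists (vertical axis), with clone 12 as circles with its standard error and clones 4, 10 and 11 as smaller marks, all set against the same 2 parental libraries. Of the published targets 25 of 39 fell in clone 12 while the other clones scatter around 0, and of the muscle genes 32 of 55 rose.

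FOXF1, FOXC2 and FOXL1, 3 forkhead transcription factor genes that lie close together on chromosome 16 and act in mesenchymal development, were all strongly lower in clone 12. FOXF1 had 66.5 and 49.2 normalised counts in clone 12, against 579 and 572 in parental Rh30 (log2 -3.32, SE 0.31, edgeR adjusted p = 4.54e-05). FOXC2 had 24.6 and 9.42 in clone 12, against 210 and 201 in parental Rh30 (log2 -3.63, SE 0.30). FOXL1 had 9.86 and 11.5 in clone 12, against 132 and 125 in parental Rh30 (log2 -3.57, SE 0.40). For all of them both clone 12 libraries lay below every library of clones 4, 10 and 11 and of parental Rh30. Low levels were not particular to clone 12: in the dTAG time course, which was scaled separately and has 1 pooled column per condition, the Rh30 line with FKBP on wild-type FOXO1 (FOXO1-FKBP) had 25.9 normalised counts of FOXF1, 7.51 of FOXC2 and 7.19 of FOXL1 in DMSO. The PAX3-FOXO1-FKBP line of that experiment had 1052, 466 and 247 in DMSO. In the other tagged clones FOXF1 was also below parental, with log2 changes of -0.47, -0.56 and -1.51 in clones 4, 10 and 11. FOXC2 was higher than parental there, by 1.27, 1.14 and 0.70 on the log2 scale, and FOXL1 differed by no more than 0.48. The nearest tested neighbours did not fall with them, although ZCCHC14, 5 tested genes beyond FOXC2, fell by 0.57. MTHFSD, which lies between FOXF1 and FOXC2, had a log2 change of -0.01, and FBXO31, 3 tested genes beyond FOXC2, had 0.29. COX4I1, next to FOXF1 on the other side, rose by 0.88.

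Genes of the contractile apparatus were higher in clone 12. Of 55 tested muscle contractile and differentiation genes 32 rose (58.2%) and 2 fell (3.64%), against 27.8% and 24.7% of all genes tested. The median log2 change was 1.03, and after the GC and length correction 26 were higher and 2 lower with a median of 0.63. MYL1, a fast myosin light chain, had 371 and 460 normalised counts in clone 12, against 17.2 and 34.2 in parental Rh30 (log2 3.99, SE 0.38, edgeR adjusted p = 4.54e-05). MYLPF, the fast skeletal regulatory light chain, rose by 2.98 (SE 0.32) and MYPN, myopalladin of the Z-disc, by 3.42 (SE 0.31). DES, the muscle intermediate filament desmin, had 30862 and 27381 in clone 12, against 9495 and 9708 in parental Rh30 (log2 1.60, SE 0.15, corrected 0.95). CHRNB1, a subunit of the muscle acetylcholine receptor, rose by 1.11, and UNC45B, a chaperone for myosin folding, by 3.04.

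The rise was not uniform across the sarcomere. TNNI2, the fast troponin I, went the other way with 143 and 207 normalised counts in clone 12, against 452 and 427 in parental Rh30 (log2 -1.32, SE 0.26), while in clone 11 it was higher than parental by 2.33. The adult fast myosin genes MYH1 and MYH4 had too few reads to be tested, and the perinatal MYH8 reached 106 and 183 in clone 12, against 26.2 and 22.5 in parental Rh30. The list's median was above 0 in the other clones as well, at 0.80, 0.93 and 0.67 in clones 4, 10 and 11. Against their mean, 19 of 55 were higher in clone 12 and 8 lower, MYL1 among the higher ones by 2.23 (SE 0.25, edgeR adjusted p = 9.99e-05). HSPB3, a chaperone of the small heat shock family, and ANKRD2, a titin-binding protein of muscle, were among the 12 largest rises of genes with a mean of at least 50 normalised counts that the naming rule admits, at 4.29 (SE 0.37) and 4.42 (SE 0.57).

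The letters CANNTG, the E-box that MyoD-family factors bind, give one feature that these genes have in common which the list did not use. Of 34 muscle genes with a promoter in the RefSeq table (250 bases before to 50 after the start, GRCh38.p14), 31 held CANNTG on either strand, which is 91.2%, against 60.5% of 9885 tested genes with a promoter. Among genes called at least 2-fold higher in clone 12 the share was 65.0%, and among those at least 2-fold lower 61.9%. Of 30 published targets 16 held it. The E-box was not the only motif more frequent in the muscle promoters. GGAATG was in 26.5% of them against 11.1% of all, and TGANTCA in 14.7% against 4.61%, while GTAAACA was in 0% against 2.15%. The muscle promoters also differed in base composition, with a median of 5.5 CG dinucleotides against 26 in all, and 61% GC against 65%. Neither the 30 target promoters nor the 34 muscle promoters held GTCACGG, a core of the PAX3 paired-domain site, against 3.66% of all. The homeodomain core TAATTA was in 2 of the 30 target promoters (6.67%) and 3 of the 34 muscle promoters (8.82%), against 208 of 9885 promoters in all. Promoters of 3 muscle genes that rose, and of the target TFAP2B which fell, are shown for their E-boxes, from TNNT2 (cardiac troponin T) with 5 to MYL1 with 1. They lie at chr1:201377631-201377930 (minus strand) for TNNT2, chr10:68109238-68109537 (plus) for MYPN, chr2:210315125-210315424 (minus) for MYL1 and chr6:50818621-50818920 (plus) for TFAP2B, in GRCh38.p14. Capitals mark CANNTG, and each is written 5′ to 3′ along its gene.
TNNT2: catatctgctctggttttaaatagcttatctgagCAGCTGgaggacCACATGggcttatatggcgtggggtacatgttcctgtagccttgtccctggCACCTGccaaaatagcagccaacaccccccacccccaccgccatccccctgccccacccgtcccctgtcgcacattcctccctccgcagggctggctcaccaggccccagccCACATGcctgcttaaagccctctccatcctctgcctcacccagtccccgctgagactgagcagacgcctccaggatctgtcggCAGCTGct
MYPN: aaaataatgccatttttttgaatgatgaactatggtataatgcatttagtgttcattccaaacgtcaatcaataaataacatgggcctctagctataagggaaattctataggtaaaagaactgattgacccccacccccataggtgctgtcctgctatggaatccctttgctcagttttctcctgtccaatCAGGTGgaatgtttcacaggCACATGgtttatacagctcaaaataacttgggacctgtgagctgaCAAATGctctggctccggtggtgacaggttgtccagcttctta
MYL1: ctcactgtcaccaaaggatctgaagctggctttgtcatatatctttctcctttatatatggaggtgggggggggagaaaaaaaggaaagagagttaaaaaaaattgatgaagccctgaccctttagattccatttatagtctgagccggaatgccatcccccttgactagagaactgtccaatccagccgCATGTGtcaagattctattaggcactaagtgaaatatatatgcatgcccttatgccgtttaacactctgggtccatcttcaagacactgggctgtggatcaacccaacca
TFAP2B: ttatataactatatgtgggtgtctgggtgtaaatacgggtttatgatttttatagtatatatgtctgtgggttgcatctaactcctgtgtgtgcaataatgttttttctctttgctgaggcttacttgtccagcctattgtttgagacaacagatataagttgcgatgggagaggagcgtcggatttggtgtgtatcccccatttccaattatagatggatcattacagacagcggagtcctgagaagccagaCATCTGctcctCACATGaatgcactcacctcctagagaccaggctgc
A match of these letters is a description of the sequence and does not show a bound site.

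Receptor tyrosine kinases and their ligands, through which rhabdomyosarcoma cells take growth signals, were more often lower than higher. Of 30 tested 16 fell (53.3%) and 4 rose (13.3%), against 24.7% and 27.8% of all genes tested. After correction 12 fell and 5 rose. The median log2 change was -0.66. Without parental library 1 or 2 the lower count was 10. IGF2, the main autocrine growth factor of this tumour and an imprinted gene, had 65477 and 70537 normalised counts in clone 12, against 146842 and 147464 in parental Rh30 (log2 -1.11, SE 0.14, edgeR adjusted p = 0.000184). IGF1R, the receptor through which IGF2 signals, fell by 1.44 (SE 0.22). Both were also lower in clone 12 than in each of the other tagged clones. EPHB1 and EPHA7, receptors for ephrins in cell guidance, fell by 2.64 and 1.82. ERBB2, the HER2 receptor, rose with 1183 and 1114 in clone 12 against 399 and 374 in parental Rh30, and EPHB3 rose by 1.08.

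Nuclear genes of the mitochondrial respiratory chain were more often higher than lower. Of 32 tested 21 were called higher (65.6%) and 0 lower in the edgeR test (median log2 0.63), against 27.8% and 24.7% of all genes tested. It was 23 and 0 at an unadjusted p under 0.05, 21 and 0 by DESeq2, and 23 and 0 after the GC and length correction. Library totals gave 18 higher and 2 lower, and the 4 libraries alone 26 and 2. CYC1, cytochrome c1 of complex III, had 9798 and 9783 normalised counts in clone 12, against 3589 and 3600 in parental Rh30 (log2 1.45, SE 0.16). NDUFB8 and NDUFA9, both of complex I, rose by 1.57 and 1.09. The list's medians were 0.23, 0.01 and 0.62 in clones 4, 10 and 11, and against their mean 17 of the 32 were higher in clone 12 and 1 lower. Genes of the MYC family and of ribosome production also leaned up, with 11 of 21 higher and 2 lower, among them DKC1, the pseudouridine synthase of the X chromosome, by 1.32 and BOP1, needed to process large-subunit rRNA, by 1.44 (corrected 0.77). Without parental library 2 the higher count was 7.

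Class I antigen presentation genes showed 11 of 15 higher (73.3%) and 0 lower in the edgeR test, against 27.8% and 24.7% of all genes tested. It was 12 and 0 at an unadjusted p under 0.05, and 9 and 0 both by DESeq2 and after correction. Leaving out 1 library gave 7 higher without either clone 12 library or parental library 2, and 6 without parental library 1. NLRC5, the transactivator of class I genes, had 368 and 230 normalised counts in clone 12, against 61.4 and 60.4 in parental Rh30 (log2 2.29, SE 0.26). B2M, the class I light chain, rose by 0.83, with 14155 and 13393 in clone 12 against 7728 and 7742 in parental Rh30. HLA-B and HLA-C were called higher too but lay near the floor, with no more than 6.16 normalised counts in any of the 4 libraries. ATF4-responsive genes of amino acid stress counted 14 of 21 higher and 1 lower, led by the serine synthesis enzyme PHGDH (log2 1.54, SE 0.19), but 7 were higher after correction or under library totals. It was 10 and 4 without clone 12 library 1 or 2, and 6 without either parental library. S phase genes were mixed, at 9 higher and 7 lower of 26, and the correction turned this to 4 and 11.

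Detoxification genes split by family, with 11 of 24 tested higher (45.8%) and 6 lower (25%), and 12 and 6 after correction. Of all genes tested 27.8% were higher and 24.7% lower, so the lower share was close to that of all genes. The higher count was 7 and 8 without clone 12 library 1 or 2, and 7 without either parental library. The glutathione transferases GSTM2 and GSTM3 rose by 2.40 and 1.84. The aldo-keto reductases AKR1C1, AKR1C2 and AKR1C3, which lie next to each other on chromosome 10, all fell, AKR1C1 by 2.03 and AKR1C3 by 2.43, and all were lower in clone 12 than in each of the other clones, although AKR1C2 was not called after correction, at -0.82. These AKR1C genes are close in sequence, so reads could be split between them uncertainly. ALDH1A1, a retinaldehyde dehydrogenase, was nearly lost, with 3 and 0 reads in clone 12 against 170 and 203 in parental Rh30.

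Matrix and stromal genes moved in both directions, with 9 of 28 higher (32.1%) and 7 lower (25%), shares close to the 27.8% and 24.7% of all genes. With any 1 of the 4 libraries left out 3 were lower. THY1, the surface glycoprotein CD90, gave the largest rise of all named genes, with 1237 and 1111 normalised counts in clone 12, against 0.819 and 4.37 in parental Rh30 (log2 8.70, SE 0.41, edgeR adjusted p = 3.09e-06). It was also high in clones 4 and 10, at 543 to 1518, and had no reads in clone 11. COL1A1, a chain of type I collagen, had 2656 and 2002 in clone 12, against 306 and 282 in parental Rh30 (log2 2.98, SE 0.19). VCAN, the proteoglycan versican, fell by 2.28. Of 12 tested neuronal genes 5 rose (41.7%) and 4 fell (33.3%). Clone 12 differed with 1 sign from parental Rh30 and from each other tagged clone in 5 of these 12, against 691 of all 14175 genes. Lists for epithelial, leukocyte and endothelial cells gave little. In these, 2 of 8 tested epithelial genes rose (KRT7 and MUC1), and 3 of 13 leukocyte genes rose, to at most 49.3 normalised counts in clone 12. After the GC and length correction 1 epithelial gene was higher and 1 lower, and 1 leukocyte gene was higher. MUC1 was called neither after that correction, at a log2 change of 0.75, nor by DESeq2. The endothelial genes gave 2 higher and 3 lower of 9. Without parental library 1 or 2 the leukocyte count was 0, and without parental library 2 the epithelial count was 0. The defining leukocyte gene PTPRC and the epithelial CDH1 had too few reads to be tested.

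**Figure D3:**
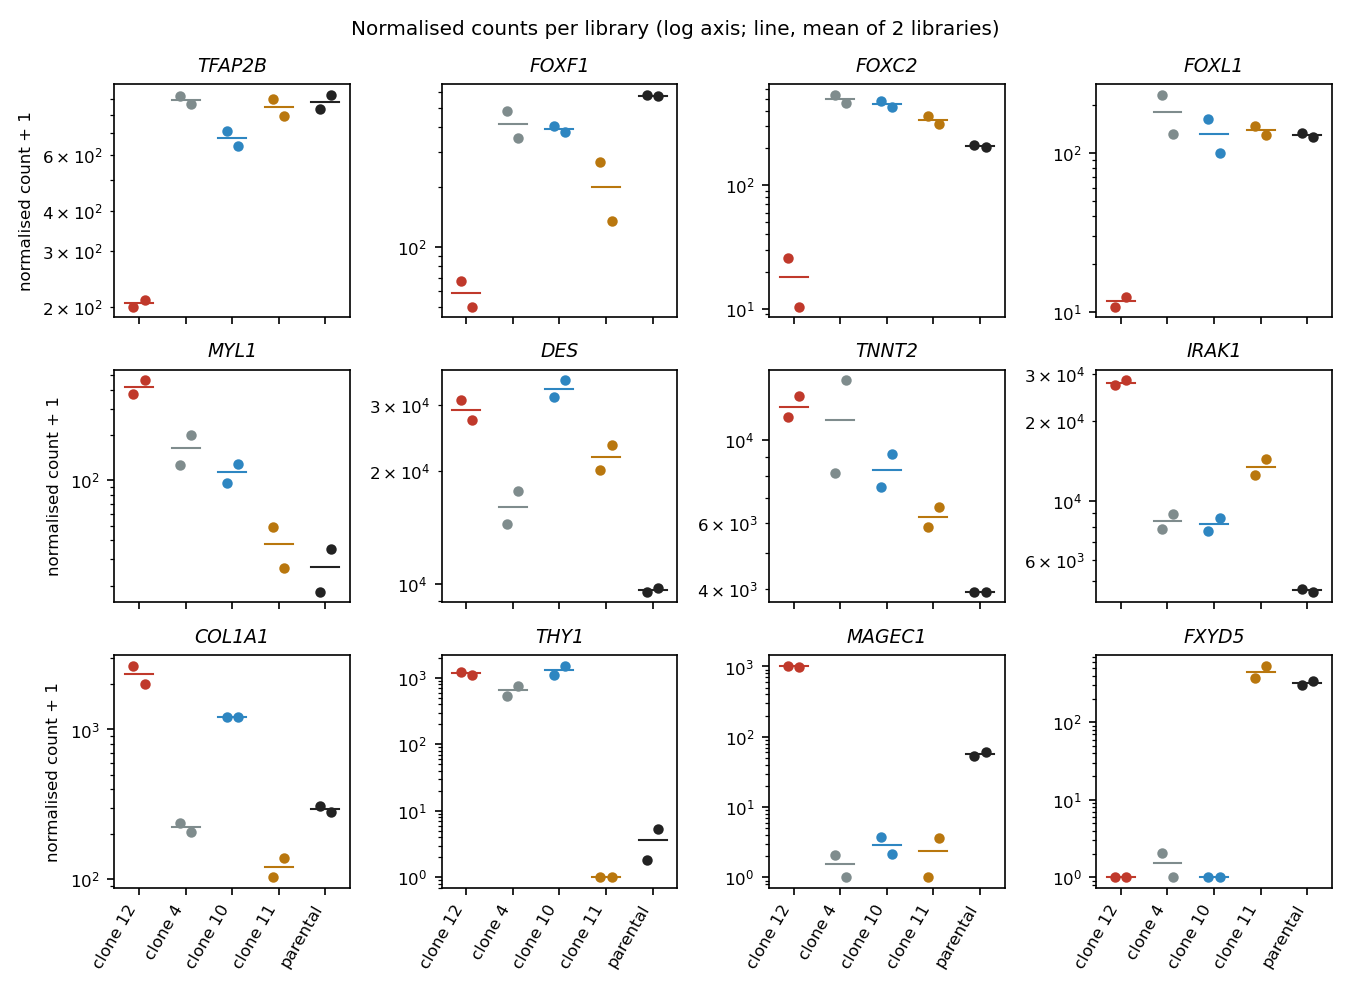
Normalised counts plus 1 on a log axis (vertical) for 12 named genes in each of the 10 clone and parental libraries, grouped as clone 12, clones 4, 10 and 11 and parental Rh30 (horizontal), with points for libraries and a line for the mean of 2. TFAP2B and the FOX genes are lowest in clone 12, IRAK1 and MAGEC1 are highest there, and THY1 and FXYD5 separate the clones in other ways.

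Some genes that parental Rh30 clearly expressed were almost absent from clone 12. By a rule chosen after seeing the data, 23 genes had at most 3 reads in both clone 12 libraries together and at least 30 in each parental library, and 1 gene, NLRX1, showed the reverse. FXYD5, a regulator of the sodium pump, had no reads in clone 12, against 370 and 471 in parental Rh30, so it was at least 94.4-fold lower, taking 3 reads per library as the floor. COL4A5, a basement membrane collagen chain, was at 0 in all 8 libraries of the tagged clones, against 261 and 313 in parental Rh30, and at least 64.6-fold lower in clone 12. SFRP1, a secreted Wnt inhibitor, and CLEC11A, a secreted growth factor for bone, were at least 36.4-fold and 42.6-fold lower. MAGEA3 had 2 and 1 reads in clone 12 against 471 and 619 in parental Rh30, a 247-fold difference with a 95% counting interval of 84.4 to 1201. NLRX1, a mitochondrial NOD-like receptor, had 77 and 95 reads in clone 12, against 1 and 1 in parental Rh30, a 126-fold difference with an interval of 34.4 to 1052. Bounds and intervals cover counting error only. Of the 23 genes, 16 were also near 0 in clone 4, 9 in clone 10 and 4 in clone 11, and 5 were near 0 in clone 12 but in none of the others. Of these 5, ARHGAP8 and C10orf35 were close to the limit in clone 4, with 5 and 2 and with 2 and 4 reads. GALNTL4, IFT27 and PRDM16 had 18 reads or more in every library of the other clones.

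The longest run of nearly absent genes lay on the X chromosome. It was found with a lower parental limit of 20 reads, so not all of its genes are among the 23 above. From RAB9B to NRK, 7 tested genes in a row had no more than 1 read in either clone 12 library. FAM199X had 0 and 0 reads in clone 12, against 255 and 235 in parental Rh30, and NRK, a kinase gene, had 0 and 1 reads in clone 12, against 939 and 1039 in parental Rh30. The NRK difference was 1346-fold, with a 95% counting interval of 241 to 53204. Clone 4 had the same 7 genes at 0 to 2 reads, and clones 10 and 11 expressed them, NRK with 346 to 1122 reads. The FOXO1-FKBP line of the separately scaled time course was low over this stretch too, with 22.7 normalised counts of NRK, 9.72 of FAM199X and 0.444 of MCART6 in DMSO, while the PAX3-FOXO1-FKBP line had 1936, 443 and 52.9. The genes on either side were read in every library: MORF4L2 had 7791 and 10021 reads in clone 12, against 16637 and 19411 in parental Rh30, and MUM1L1 had 25 and 49 in clone 12, against 119 and 126 in parental Rh30. Whether the DNA of this stretch was present was not tested.

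**Figure D4:**
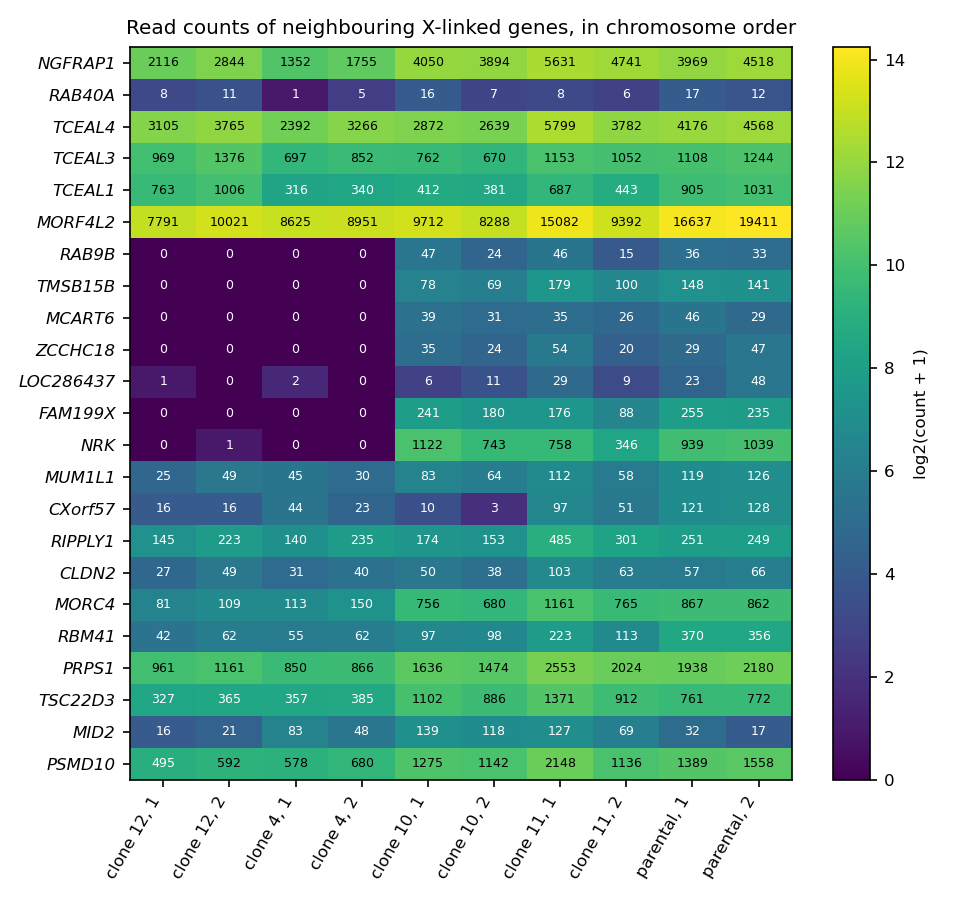
Read counts, with colour for log2(count + 1), of neighbouring X-linked genes in chromosome order (vertical) in the 10 clone and parental libraries (horizontal). The 7 genes from RAB9B to NRK are at 0 to 2 reads in clones 12 and 4 and are expressed in clones 10, 11 and parental Rh30.

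Changes also ran over longer stretches of chromosomes. Taking the median over every run of 25 neighbouring tested genes, as a description without a test, the highest was 2.00, on the X chromosome from HAUS7 to DNASE1L1, where 22 of 25 genes rose and 1 fell. After the GC and length correction it was 1.48, still with 22 higher, and clones 4, 10 and 11 had medians of 0.35, 0.47 and 1.15 there. IRAK1, a kinase of Toll-like and interleukin-1 receptor signalling, stood in this stretch with 27261 and 28422 normalised counts in clone 12, against 4677 and 4556 in parental Rh30 (log2 2.59, SE 0.14, edgeR adjusted p = 3.09e-06). Its neighbours EMD, the nuclear envelope protein emerin, and RPL10, a ribosomal protein, rose by 2.06 and 1.63. HCFC1, 2 tested genes away, was not called, at 0.35.

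The lowest median was -1.93, on the X chromosome from RAB9B to CHRDL1, which includes the 7 near-silent genes. This stretch had medians of -1.83, -0.01 and 0.23 in clones 4, 10 and 11, all set against the same parental libraries. After correction it was -1.07 in clone 12. Groups of KRAB zinc finger repressor genes on chromosome 19 were also among the lowest, at -1.66 from ZNF93 to ZNF254 and -1.49 from ZNF880 to ZNF813. Of 33 tested zinc finger genes of that chromosome 30 fell (90.9%) and 1 rose (3.03%), against 24.7% and 27.8% of all genes tested. Their median was -1.44 in clone 12, and -1.35, -1.28 and -1.69 in clones 4, 10 and 11. These genes are GC-poor, at a median of 37.4% in the first group. After correction 22 were lower with a median of -0.77, 21 of them called in both fits. Against the mean of the other clones 0 of the 33 were lower in clone 12 and 1 was higher in the edgeR test, and 3 and 3 at an unadjusted p under 0.05.

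**Figure D5:**
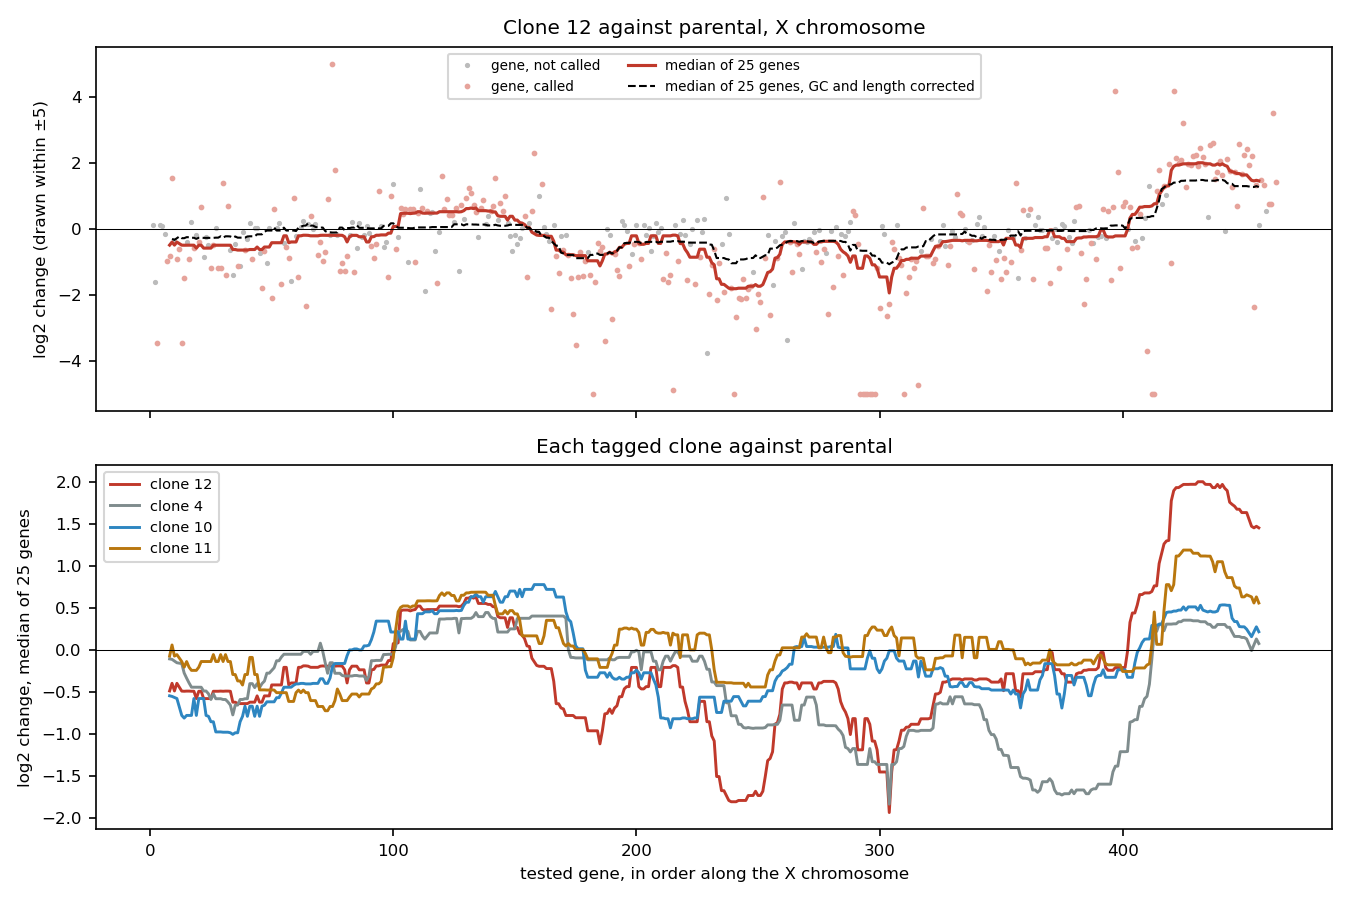
Log2 change against parental Rh30 (vertical axis, single genes drawn within ±5) of tested genes in their order along the X chromosome (horizontal axis), as genes and running medians of 25 for clone 12 above, and as running medians for each tagged clone below, all against the same parental libraries. The end of the chromosome rises to a median of 2.00 in clone 12, against 1.15 in clone 11 and less than 0.5 in clones 4 and 10, and the dip at RAB9B to CHRDL1 is seen in clones 12 and 4.

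A direct test separated what is found in clone 12 from what the tagged clones have in common. Against the mean of clones 4, 10 and 11, 2260 genes were higher in clone 12 (15.9% of those tested) and 1895 lower (13.4%). Requiring a call with 1 sign against parental Rh30 and against each of the other clones left 391 genes higher (2.76%) and 300 lower (2.12%), and 193 to 241 and 154 to 197 with any 1 clone 12 or parental library left out. The cancer-testis genes MAGEC1 and MAGEC2, neighbours on the X chromosome that are normally read in the testis, stood out. MAGEC1 had 1019 and 980 normalised counts in clone 12, against 0 to 2.73 in the other clones and 51.6 and 59.6 in parental Rh30. MAGEC2 had 589 and 554 in clone 12, against 0 to 1.34 in the other clones and 169 and 180 in parental Rh30. The 2 genes were therefore nearly silent in the other 3 clones and above the parental level in clone 12. Of 8 tested cancer-testis genes 3 rose (37.5%) and 4 fell (50%) in clone 12 against parental Rh30, where 27.8% and 24.7% of all genes did. MAGEB1 was among those that rose, and MAGEA3 and CTAG2 among those that fell.

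Other genes set clone 12 apart from parental Rh30 and from each of clones 4, 10 and 11. DNAH5, a heavy chain of the ciliary dynein motor, had 201 and 141 normalised counts in clone 12 and no more than 4.51 in the other 8 clone and parental libraries. The FOXO1-FKBP line of the time course, scaled separately, had 533 in DMSO, so this level was not found in clone 12 alone. PELO, a ribosome rescue factor, had 2836 and 2806 in clone 12, against 523 to 920 in the other 8 libraries, and it begins a run of 4 neighbouring genes on chromosome 5 (PELO, ITGA2, MOCS2 and FST) that were all higher in this way. PELO and ITGA2 had 2566 and 134 normalised counts in the DMSO column of the FOXO1-FKBP line, and 839 and 36.8 in that of the PAX3-FOXO1-FKBP line. TSPO, a mitochondrial membrane transporter, had 192 and 288 in clone 12, against 30.3 and 32.7 in parental Rh30 and no more than 28.0 in the other clones. On the low side, PALM, a membrane protein of neurites, had 9.86 and 13.6 in clone 12, against 135 to 653 in the other 8 clone and parental libraries. KRT17, a keratin of basal epithelium, had 794 and 849 in clone 12, against 2646 and 2639 in parental Rh30 and 4803 to 33962 in the other clones. In DMSO the FOXO1-FKBP line had 573 and the PAX3-FOXO1-FKBP line 4946. For PALM and TSPO the FOXO1-FKBP line had 232 and 15.1.

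The dTAG time course gave a readout in other cells of the genes that differ in clone 12, with 1 pooled column per condition and so no replicate error. The labels do not say which clone the PAX3-FOXO1-FKBP line of that experiment is. After 72 h of 500 nM dTAG, 163 of 1038 genes that were at least 2-fold higher in clone 12 were also at least 2-fold higher than in DMSO in the PAX3-FOXO1-FKBP line (15.7%), against 3.43% of all 12292 genes. Of 1523 genes at least 2-fold lower in clone 12, 130 were at least 2-fold lower there (8.54%), against 2.99% of all. In the FOXO1-FKBP line, where wild-type FOXO1 carries the tag, these numbers were 0 of 976 and 4 of 1421 (0.281%), against 0.0502% and 0.368% of all 11954 genes. MYL1 had 1679 normalised counts at 72 h of dTAG, against 57.9 in DMSO. FOXC2 had 108 at 72 h, against 466 in DMSO, and TFAP2B had 737, against 1564. IRAK1, by contrast, had 5184 at 72 h and 6374 in DMSO, a log2 difference of -0.30, and STAT6, which rose by 2.45 in clone 12, had 171 and 219. Genes were compared with no test here, since each condition is a single column.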

How the data were processed

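RNA of Rh30 cells was measured by RNA sequencing, with total RNA taken with TRIzol per the labels' protocols. Trimmomatic 0.32, Bowtie2, Cuffdiff 2.1.1 and the build hg19 are named in the submitters' processing notes, without their roles, and the counting tool is not stated. The clone table has raw whole-number counts deposited by the authors, 1 column per library. For the time course the deposited values are estimated counts in 1 pooled column per condition, per the file headers, and they were scaled with TMM factors and described as log2 of the value plus 2. The clone 12 columns are numbered otherwise than its labels, so they were used as a pair of its libraries.

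Counts of all 10 clone and parental libraries were fitted with edgeR 4.0.16 (R 4.3.3) in a quasi-likelihood model with a mean for each group. TMM scaled the libraries, filterByExpr at a minimum count of 10 removed low genes, and 5 residual degrees of freedom remained. P-values were adjusted by Benjamini-Hochberg over the 14175 genes tested. Fitted fold changes of genes near 0 reads depend on the prior count. Data were also simulated with each gene's mean over all 10 libraries, with no GC trend and with changes put into clone 12. The changed genes, 50 at each size and direction, had a mean of at least 50 normalised counts. Of 13862 genes fitted, 100% of those changed 4-fold and 68% to 80% of those changed 2-fold were called, with 15 unchanged genes called. The real libraries, with many genes called and a GC trend, differ from this setting, so these rates may not hold for them. Alternatives were DESeq2 1.42.0, other scalings and filters, the 4 libraries alone, leaving out each library, and a lowess correction for GC content and length of GENCODE v29 transcripts, matched by symbol for 95.5% of genes. Gene order came from RefSeq, a build other than hg19, so no coordinates are printed except those of promoter sequences.

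The members, the 42 gene lists and the tests were chosen with earlier results of these data known. Named genes are PAX3 and FOXO1, the 12 largest changes each way with a mean of at least 50 normalised counts, the 8 lowest p each way, the 6 called members with the lowest p in a list, and the 8 genes each way that most set clone 12 apart. Antisense, pseudogene, ORF, histone, ribosomal protein and small RNA names were left out of the rules on size and p. Other genes named in the text, such as members of a list that were not called or neighbours on a chromosome, were chosen after their values were seen. A few genes that the rules name, and a chromosome stretch, are not reported here.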

Additional observations from a re-analysis of the deposited data

Results flagged for a closer look

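The genes named here differed between clone 12 and the mean of clones 4, 10 and 11 in a direct edgeR test, and passed also against parental Rh30 and each clone with the same sign. The differences are log2 values, clone 12 minus the mean of the other clones. Those higher in clone 12 were MAGEC2 at 10.54, DSCR8 at 9.99, MAGEC1 at 9.69, DNAH5 at 6.37, TSPO at 6.14, MAGEB1 at 4.97, FAM155A at 4.56 and SLC38A5 at 4.14. Those lower were PALM at -5.09, FOXC2 at -4.66, KRT17 at -3.82, NCCRP1 at -3.80, FOXL1 at -3.77, EPHB1 at -3.35 and CCDC154 at -3.34. In the time course, scaled separately, the DMSO column of the FOXO1-FKBP line had 533 normalised counts of DNAH5, 573 of KRT17, 7.51 of FOXC2 and 7.19 of FOXL1. That column also had 122 of DSCR8, 74.4 of FAM155A and 7.43 of EPHB1. The DMSO column of the PAX3-FOXO1-FKBP line had 0.401, 6.76 and 276 of these. The high TSPO and low PALM of clone 12 were not found in the FOXO1-FKBP line, as given above. Fitted values of genes near 0 reads in the other clones rest on the prior count. DSCR8 had 225 reads in clone 12 and 0 in the 6 libraries of the other clones, so it was at least 39.1-fold higher with 3 reads per library as the floor. MAGEC2 had 1007 reads in clone 12 and 2 in those 6 libraries, a 1607-fold difference with a 95% counting interval of 444 to 13285. NCCRP1 rested on unequal clone 12 libraries, with 41.9 and 3.14 normalised counts.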

How the results depend on the processing

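With at least 2-fold required, 1421 genes were higher and 1817 lower than in parental Rh30, and 711 and 565 against the mean of the other clones. Leaving out 1 library in turn gave 2410 to 2627 higher and 2348 to 2841 lower than parental. Without clone 12 replicate 1 or 2, the contrast with the mean of the other clones gave 1007 to 1122 higher and 717 to 789 lower, and the genes that set clone 12 apart numbered 193 to 241 higher and 154 to 197 lower over the libraries left out. The GC and length correction gave 1002 genes at least 2-fold lower, 975 at least 2-fold higher, and 453 genes lower that set clone 12 apart. It turned the sign of BAX (-0.014), BAD (-0.068), CDH15 (-0.064) and PDK1 (0.32) among 272 named genes, none of them called after it, and ended the call of 33 more. The cause was not tested. DESeq2 called 3625 higher and 3611 lower, and the 4 libraries alone 4570 and 4902. Size factors changed the side of the threshold of 0 named genes. No paired analysis was possible because the labels number the clone 12 samples 3 and 4 and the parental samples 1 and 2. With 2 libraries a group, leaving one out assumes that the lone library varies like the other groups, and depth limits genes under the filter's minimum count.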

Other observations

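Lists not described above gave mixed counts in clone 12 against parental Rh30, where 27.8% of all genes were higher and 24.7% lower. Ranges in parentheses are the counts higher and the counts lower with any 1 of the 4 libraries left out. G2/M genes had 5 of 24 higher and 10 lower (1 to 4 and 7 to 10), and 2 and 8 after the GC and length correction. KIF11, a spindle motor, fell by 1.65 on the log2 scale and CENPF, a kinetochore protein, by 1.58, while PTTG1, securin, rose by 1.04. Of 14 cyclin D, kinase and inhibitor genes 7 rose and 3 fell, and 7 and 1 after the correction. CDK4 was at 0.77 and CDK6 at -1.10, and the correction ended the call of CDK6, at -0.24. Imprinted genes had 3 of 23 higher and 9 lower (1 to 3 and 6 to 7), with KCNQ1OT1, a long non-coding RNA, at -3.32. Clustered protocadherins, surface proteins of neurons, had 1 of 36 higher and 8 lower (0 to 1 and 3 to 6), and the lower count was 5 by DESeq2 and 12 under library totals. Integrins had 9 of 18 higher and 4 lower (7 to 9 and 3 to 4), with ITGA2, a collagen receptor subunit, at 2.80. Heat shock genes had 9 of 17 higher and 2 lower (4 to 5 and 0 to 2), and 6 and 0 after the correction.

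HOX genes, which set position along the body axis, had 10 of 32 higher and 4 lower (6 to 7 and 2 to 4), and 5 and 12 after the correction, so their direction depends on it. TGF-beta and BMP genes had 7 of 31 higher and 11 lower, and without clone 12 library 2 the balance turned to 10 and 8. Wnt genes had 10 of 31 higher and 10 lower (6 to 7 and 9 to 10), and Notch genes 4 of 21 and 2 (3 to 4 and 1 to 2), with 3 and 5 after the correction. Hedgehog genes had 1 of 11 higher and 3 lower (1 and 1 to 2), and YAP/TEAD-responsive genes 7 of 16 and 2, the higher count being 2 without clone 12 library 1. ERK feedback genes had 4 of 24 higher and 7 lower (2 and 4 to 9), with DUSP6, an ERK phosphatase, at -1.32. NF-kB-responsive genes had 6 of 15 higher and 2 lower (4 to 5 and 2). BCL2 family genes had 6 of 13 higher and 4 lower (2 to 3 and 1 to 3), and 3 and 2 after the correction.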
